A study of Mus musculus with 18 samples.

Results

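The genes described here are 9 cues and receptors of axon guidance and neurotrophic support in the heart, listed by gene name. They are the class 3 semaphorins Sema3a, Sema3b, Sema3c, Sema3d, Sema3e and Sema3f, the neuropilins Nrp1 and Nrp2, and the neurotrophin Ntf3, 9 of the 55453 gene symbols in the counts table. Of these, 7 passed the filter on low counts that kept 16170 genes for testing, and Sema3a and Sema3e did not. They were measured by bulk RNA sequencing of GFP+ cells of the Tcf21 lineage, sorted from the apical portion of the ventricles of C57BL/6J pups.

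All pups were TCF21MerCreMer/+; RosamTmG/+ and had received tamoxifen at P1, so that cells in which the Tcf21-driven Cre was active at that age, and their descendants, carried membrane GFP. There were 3 libraries in each of 6 groups. P2 baseline and P10 baseline came from un-manipulated pups. P2 sham +3 days and P10 sham +3 days came from pups given sham surgery at P2 or P10, and P2 resected +3 days and P10 resected +3 days from pups whose apex was resected at those ages, all collected 3 days after surgery. The study calls P2 the regenerative and P10 the non-regenerative age. How many pups went into a library, and their sex, are not given in the sources used here, so p-values measure the spread between libraries, whatever its source.

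Class 3 semaphorins are secreted proteins that steer growing axons and blood vessels, mostly by repulsion. They bind a neuropilin on the receiving cell, which signals through a plexin, and Nrp1 is also a co-receptor for VEGF. In the heart, Sema3a is known for keeping sympathetic axons out of the inner wall, Sema3c for outflow tract septation and Sema3d for the patterning of pulmonary veins. Ntf3 encodes neurotrophin-3, a ligand of the receptor TrkC that supports sensory and sympathetic neurons.

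Total gene counts ran from 10462737 to 22980554 per library. The 8 fibroblast markers examined summed to between 44464 and 103854 CPM per library, where CPM is a gene's count relative to the scaled library size. The 12 Schwann cell and neuronal markers summed to between 11.1 and 83.0 CPM, and Foxd3 and Th had no count in any library. From P2 to P10 the range of the summed fibroblast markers moved from 44464 to 90790 CPM up to 65449 to 103854 CPM, and that of 12 cardiomyocyte markers from 316 to 1484 CPM down to 163 to 816 CPM. Of those lists, 3 fibroblast genes were called higher and 6 cardiomyocyte genes lower at P10 by edgeR, where 7.11% of all genes tested were called higher and 6.39% lower. In 3 groups replicate 1 stood apart from the other 2 libraries across all genes. The chi-square per gene was 173 and 175 between P10 baseline replicate 1 and the others of its group against 37.4 between those others, and 160 and 172 against 37.6 at P10 sham. It was 318 and 185 for P2 sham replicate 1 against 81.9 for the other pair. The sample titles of these 3 libraries share an ending that no other title has, and its meaning is not given. Calls of these genes that change without these 3 libraries are given both ways. In bulk samples, fewer cells of a type and less RNA per cell cannot be told apart.

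Sema3c was the most abundant of the 9 genes per length. Levels between genes are compared as CPM per kilobase of exon. Sema3c averaged 41.8 ± 21.3 CPM per kb (SD, n = 18 libraries), which placed it above 91.4% of the genes tested. Nrp1 followed at 20.7 ± 6.05, Sema3d at 10.1 ± 5.61 and Sema3b at 6.05 ± 3.13 CPM per kb. Ntf3 was at 1.90 ± 1.53, Sema3f at 1.16 ± 0.507 and Nrp2 at 0.937 ± 0.601 CPM per kb. Sema3a and Sema3e were near 0, at 0.0100 and 0.000608 CPM per kb on average.

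Most of the class 3 semaphorin level of these cells was Sema3c, with Sema3d and Sema3b behind it. Sema3c made up 54.2% to 83.6% of the summed level per kilobase of Sema3a to Sema3f in the 18 libraries, with a mean of 68.7%. Sema3d held 3.77% to 35.1% and Sema3b 2.07% to 22.9%. At P2 baseline the mean share of Sema3d was 30.6% ± 7.08 (SD, n = 3) and that of Sema3b was 3.73% ± 2.68. At P10 baseline these were 12.5% ± 5.88 and 13.9% ± 8.87 (SD, n = 3). Nrp1 exceeded Nrp2 per kilobase in all 18 libraries, by 8.72-fold to 79.8-fold with a median of 21.5-fold. Both ends of that range are libraries that stood apart, P2 sham replicate 1 and P10 sham replicate 1, and the others ran from 12.7-fold to 67.8-fold.

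**Figure D1:**
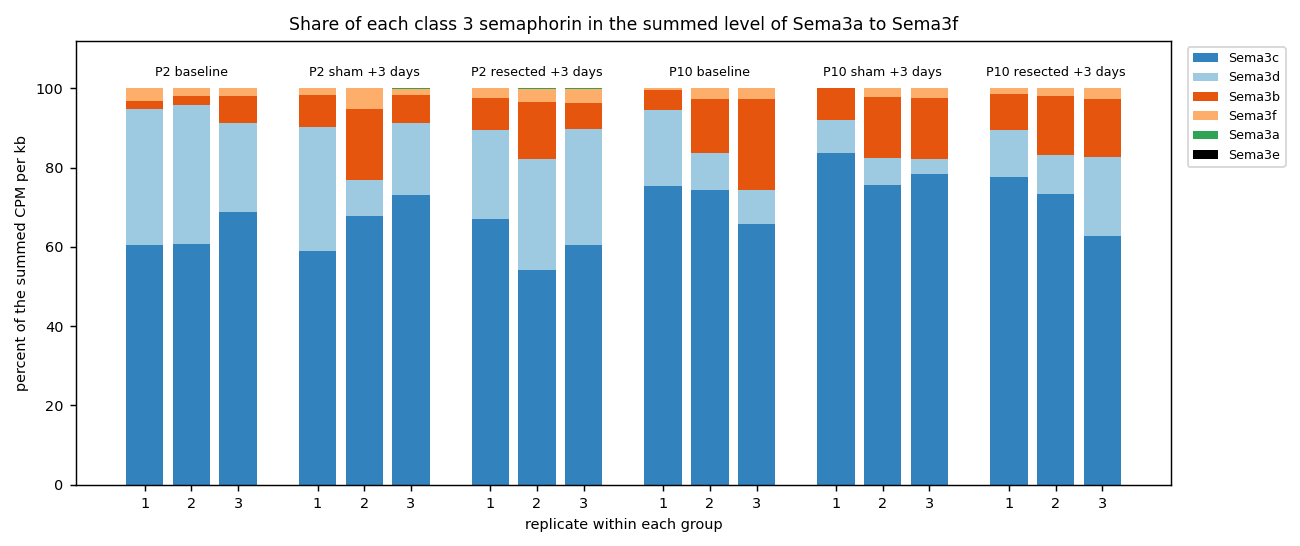
Stacked bars show, for each of the 18 libraries (x axis, replicates within the 6 groups), the percent of the summed CPM per kilobase of Sema3a to Sema3f taken by each gene (y axis). Sema3c takes 54.2% to 83.6% of every bar, and the Sema3b share averages 3.73% at P2 baseline and 13.9% at P10 baseline.

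Sema3b, a semaphorin best known as a tumour suppressor gene product and an axon repellent, was the member with the largest difference between ages among those called. It lies on the reverse strand of chromosome 9 (GRCm38 chr9:107597674-107609229). Sema3b was at 3.54, 5.58 and 11.2 CPM at P2 baseline, at 20.0, 30.8 and 18.3 CPM after P2 sham surgery, and at 23.7, 26.4 and 17.9 CPM after P2 resection. At P10 the Sema3b libraries held 28.9, 36.9 and 55.6 CPM at baseline, 45.6, 36.8 and 44.3 CPM after sham surgery and 30.7, 53.3 and 31.1 CPM after resection. The 3 P2 baseline libraries were below all 15 others, a split that was not counted over all genes. P2 sham and P2 resected libraries overlapped each other. The order of the means ran from P10 sham at 42.2 CPM through P10 baseline at 40.5, P10 resected at 38.3, P2 sham at 23.0 and P2 resected at 22.6 to P2 baseline at 6.78 CPM. Of the neighbours in this order, only P2 resected and P2 baseline did not overlap, which was not counted over all genes either.

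Sema3c, a semaphorin that attracts as well as repels axons and is needed for outflow tract septation, was higher at P10 with a smaller fold. It lies on the forward strand at chr5:17574281-17730268. Sema3c was at 155, 219 and 169 CPM at P2 baseline, at 219, 175 and 285 CPM after P2 sham surgery, and at 287, 148 and 250.1 CPM after P2 resection. At P10 it reached 625, 301 and 238 CPM at baseline, 701, 273 and 338 CPM after sham surgery and 391, 393 and 202 CPM after resection. Replicate 1 of P10 baseline and of P10 sham held the highest Sema3c levels of all libraries, and both belong to the libraries that stood apart. P2 and P10 libraries overlapped after sham surgery and after resection. In the order of the means, from P10 sham at 437 CPM to P2 baseline at 181 CPM, no group was separate from the next.

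Sema3d, a ligand for cells of the developing veins and coronary vessels, varied widely between replicates. It lies on the forward strand at chr5:12383385-12588948. Sema3d was at 106, 153 and 66.4 CPM at P2 baseline, at 141, 28.6 and 85.8 CPM after P2 sham surgery, and at 116, 91.1 and 146 CPM after P2 resection. At P10 it was at 193, 46.4 and 37.8 CPM at baseline, at 84.0, 29.3 and 19.6 CPM after sham surgery and at 73.2, 65.1 and 77.1 CPM after resection. P10 baseline replicate 1 held the highest level and the other P10 baseline libraries were below all 3 at P2 baseline. After resection, all 3 P10 libraries were below all 3 P2 libraries. The pooled SD of log2 CPM within groups was 0.88 for Sema3d, against 0.48 for Sema3b, 0.55 for Sema3c and a median of 0.62 over all genes tested.

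Sema3f, a ligand that binds Nrp2 preferentially, was low in every group. It lies on the reverse strand at chr9:107681500-107710475. Its levels at P2 were 5.89, 5.12 and 3.41 CPM at baseline, 4.50, 10.1 and 4.70 CPM after sham surgery and 7.45, 6.79 and 10.9 CPM after resection. At P10 Sema3f was at 2.12, 7.71 and 7.30 CPM at baseline, at 0, 6.08 and 8.06 CPM after sham surgery and at 4.82, 7.44 and 6.53 CPM after resection. All neighbouring groups overlapped, and the single 0, which allows up to 0.150 CPM (3 counts), was in P10 sham replicate 1, a library that stood apart and in which Sema3c was at its highest.

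Sema3a, the repellent that patterns sympathetic nerves in the heart, had 46 counts in 4 libraries. Of these, 12 were in P2 sham replicate 3, 9 and 16 in P2 resected replicates 2 and 3, and 9 in P10 resected replicate 1. No baseline library and no P10 sham library held a Sema3a count, which allows up to 0.0503 CPM at P2 baseline, 0.0662 CPM at P10 baseline and 0.0529 CPM at P10 sham (3 counts over each group, counting error only). All 4 libraries with a count came from pups that had had surgery, but the gene did not pass the filter and its values are given as a description. Sema3e, a ligand of plexin D1 in vessels, had 1 count at P2 baseline and 1 after P2 resection, and none at P10, where 3 counts over the 9 libraries are 0.0199 CPM. Sema3a (chr5:13125414-13602565), Sema3e (chr5:14025276-14256689), Sema3d and Sema3c lie on the same chromosome and strand.

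Nrp1, the neuropilin that binds Sema3a and VEGF, was abundant and even. It lies at chr8:128358604-128503363 on the forward strand. Nrp1 was at 193, 214 and 157 CPM at P2 baseline, at 222, 119 and 146 CPM after P2 sham surgery, and at 211, 154 and 191 CPM after P2 resection. At P10 it was at 348, 179 and 162 CPM at baseline, at 332, 166 and 193 CPM after sham surgery and at 241, 183 and 227 CPM after resection. The highest levels were in the 2 P10 libraries that stood apart, and every group overlapped its neighbour in the order of means. Its pooled SD of log2 CPM within groups, 0.41, was the smallest of the 7 members tested.

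Nrp2, the neuropilin that binds Sema3f and is used by lymphatic vessels, was low and uneven. It lies at chr1:62703285-62818695 on the forward strand. Nrp2 was at 11.9, 3.81 and 10.2 CPM at P2 baseline, at 30.8, 6.41 and 4.11 CPM after P2 sham surgery, and at 10.8, 9.27 and 18.2 CPM after P2 resection. At P10 it was at 21.4, 3.37 and 9.37 CPM at baseline, at 5.04, 7.57 and 5.52 CPM after sham surgery and at 17.5, 11.9 and 12.4 CPM after resection. The highest level was in P2 sham replicate 1, a library that stood apart. After P10 surgery all 3 resected libraries were above all 3 sham libraries.

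Ntf3, the neurotrophin of the set, was low in all groups and lowest on average at P2 baseline. It lies on the reverse strand at chr6:126101412-126166910. Ntf3 was at 1.98, 0 and 0.731 CPM at P2 baseline, at 1.39, 2.40 and 3.72 CPM after P2 sham surgery, and at 1.52, 2.65 and 0.495 CPM after P2 resection. At P10 it was at 2.91, 9.20 and 9.18 CPM at baseline, at 3.95, 5.89 and 3.16 CPM after sham surgery and at 3.33, 4.64 and 1.63 CPM after resection. The P10 baseline libraries were all above the P2 baseline libraries, while P10 and P2 overlapped after either surgery. These levels rest on 1002 counts in all 18 libraries, and the 0 in P2 baseline replicate 2 allows up to 0.140 CPM (3 counts).

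**Figure D2:**
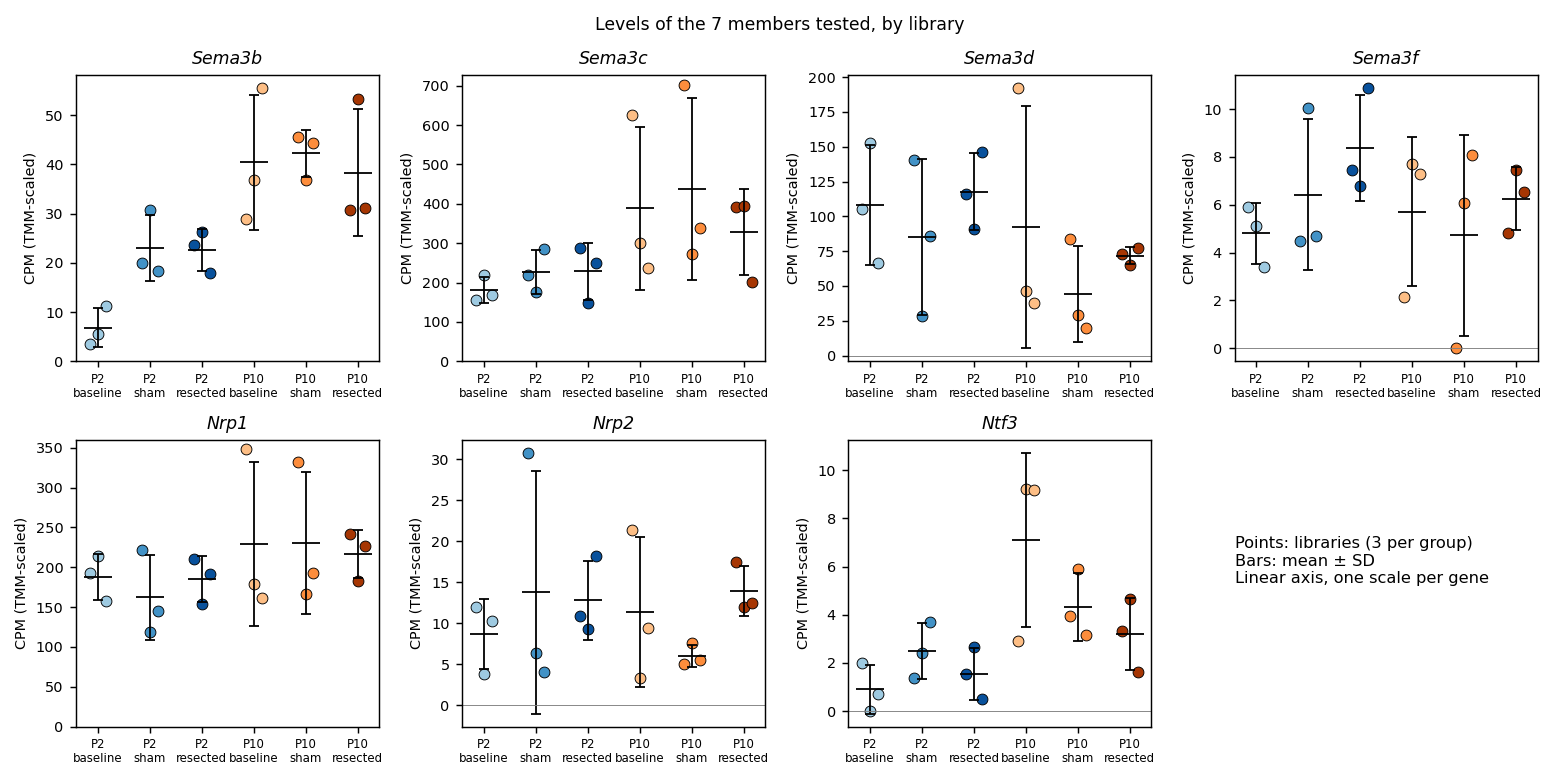
Each panel shows 1 of the 7 genes tested, with TMM-scaled CPM on a linear y axis and the 6 groups on the x axis. Points are libraries (3 per group) and the bars are mean ± SD. The 3 P2 baseline points of Sema3b lie below its 15 others, a split not counted over all genes. The highest Sema3c points, 625 and 701 CPM, are replicate 1 of P10 baseline and of P10 sham.

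Whether the cues differed between the regenerative and the non-regenerative window was asked by comparing the 9 P10 with the 9 P2 libraries. By the paper's methods, the older hearts were digested for longer, and they were collected longer after tamoxifen. Age, digestion time and time since tamoxifen cannot be told apart in any comparison of P10 with P2. Sema3b and Sema3c were called higher at P10, 2 of the 7 members tested, where 13.5% of all genes tested were called and 7.11% were called higher. The Sema3b mean was 17.5 ± 9.20 CPM at P2 and 40.3 ± 9.87 CPM at P10 (SD, n = 9), a fitted difference of 2.65-fold (log2 fold change 1.40 with a standard error of 0.23, and an adjusted p = 0.000403 by the quasi-likelihood test of edgeR, Benjamini-Hochberg over all genes tested). The fitted fold averages the log levels of the 3 groups of each window, and for Sema3b it is larger than the ratio of these means. The Sema3c mean was 212 ± 53.7 CPM and 385 ± 171 CPM (SD, n = 9), a fitted difference of 1.81-fold (log2 fold change 0.86, standard error 0.23, edgeR adjusted p = 0.0195). Leaving out any single library kept both calls. Without the 3 libraries that stood apart, Sema3b held at 1.42 (edgeR adjusted p = 0.000679) and Sema3c did not, at 0.50 (edgeR adjusted p = 0.0612).

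The window differences of Sema3b and Sema3c were smaller without the baseline groups. With sham and resected groups alone, a contrast chosen after seeing the data, Sema3b was at a log2 fold change of 0.82 (standard error 0.27, edgeR adjusted p = 0.0868) and Sema3c at 0.74 (standard error 0.28, edgeR adjusted p = 0.143). No member was called in it by edgeR, while Sema3b and Sema3c had an unadjusted p under 0.05 and 7.24% of all genes were called (other tools were not run on it). No member's 9 P10 libraries were all above or all below its 9 P2 libraries, which held for 2.51% of the genes tested.

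The other members did not pass the test between the windows. Ntf3 averaged 1.65 ± 1.17 CPM at P2 and 4.88 ± 2.71 CPM at P10 (SD, n = 9), so that log2 P10 over P2 was 1.6 (standard error 0.59), with an edgeR adjusted p = 0.0849. DESeq2 called this difference (adjusted p = 0.0190), as did limma voom with sample weights (adjusted p = 0.0123), and edgeR called it without P2 baseline replicate 1 (log2 fold change 2.04, adjusted p = 0.0431). Sema3d averaged 104 ± 40.7 and 69.5 ± 51.3 CPM, at -0.63 on the log2 scale (standard error 0.36, edgeR adjusted p = 0.275). With all libraries limma voom called it lower at P10, at -1.05 (adjusted p = 0.00299), as did edgeR without the filter on low counts, at -0.59 (adjusted p = 0.0273). Without P10 baseline replicate 1 it was at -1.0 (edgeR adjusted p = 0.0346), and without the 3 libraries that stood apart it was called lower at P10, at -1.10 (edgeR adjusted p = 0.00293). Of all genes, DESeq2 called 3031 of 16170, limma voom 4569 of 16170 and edgeR without the filter 2759 of 28906. EdgeR called 2987 of 17140 without P10 baseline replicate 1, 1770 of 17170 without P2 baseline replicate 1 and 3778 of 16765 without the 3 libraries. Nrp1 was at 0.34 (standard error 0.18, edgeR adjusted p = 0.24), Nrp2 at -0.22 (standard error 0.40, edgeR adjusted p = 0.779) and Sema3f at -0.21 (standard error 0.55, edgeR adjusted p = 0.865).

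Between un-manipulated hearts, Sema3b differed by 5.98-fold. The 3 P10 baseline libraries averaged 40.5 ± 13.7 CPM and the 3 P2 baseline libraries 6.78 ± 3.97 CPM (log2 fold change 2.58, standard error 0.41, edgeR adjusted p = 0.00156). This was the single member of 7 called by edgeR, where 4.38% of all genes were called and 2.71% were called higher. Libraries of the ages did not overlap for Sema3b, Sema3c and Ntf3, all higher at P10, 3 of 7 members where 22.4% of all genes did not overlap and 10.3% were higher at P10 without overlap. Ntf3 had the larger fold at 7.79, on 55 counts at P2 and 313 at P10 (log2 fold change 2.96, standard error 1.08, edgeR adjusted p = 0.139). DESeq2 called it at 2.98 (adjusted p = 0.0195) and limma voom at 4.06 (adjusted p = 0.00886). The edgeR value ran from 2.38 without P2 baseline replicate 2 to 4.29 without P2 baseline replicate 1, and was not called in either fit. Sema3c was at 1.10 (standard error 0.40, edgeR adjusted p = 0.141), and was at 0.58 without P10 baseline replicate 1 (edgeR adjusted p = 0.372). Without the filter on low counts edgeR called it, at 1.15 (adjusted p = 0.00438). Sema3d was at -0.23 with all libraries, and at -1.36 and called without the 3 libraries that stood apart (edgeR adjusted p = 0.0328), and limma voom called it at -1.12 (adjusted p = 0.0461). Of all genes at baseline, DESeq2 called 1573 of 16170, limma voom 3645 of 16170 and edgeR without the filter 1155 of 28906. Without the 3 libraries edgeR called 2820 of 16765.

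After sham surgery and after resection the ages were compared in the same way. In the sham groups 0 of 7 members were called by edgeR, DESeq2 or limma voom, where edgeR called 3.18% of all genes. Sema3b (log2 fold change 0.88, standard error 0.39, edgeR adjusted p = 0.272) and Sema3c (0.95, standard error 0.40, edgeR adjusted p = 0.251) had an unadjusted p under 0.05. Sema3c was at 0.43 without P10 sham replicate 1 and at 0.41 without the 3 libraries that stood apart, and edgeR called it without the filter on low counts, at 0.99 (adjusted p = 0.0285). Without the filter 911 of 28906 genes were called. Sema3b libraries did not overlap between the ages, as for 16.7% of all genes, 9.07% with P10 higher. In the resected groups 0 members were called by any of the 3 tools and none had an unadjusted edgeR p under 0.05, where 0.86% of all genes were called. There Sema3b was 1.69-fold higher (0.76, standard error 0.39, edgeR adjusted p = 0.626) and Sema3d lower (-0.71, standard error 0.62, edgeR adjusted p = 0.92), and for both the libraries did not overlap, as for 23.3% of all genes.

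The age difference of Sema3b was 1.70 (standard error 0.55) larger on the log2 scale at baseline than after sham surgery and 1.82 (standard error 0.55) larger than after resection. Neither difference passed the test across all genes (edgeR adjusted p = 0.562 and 0.451), with unadjusted p-values of 0.00649 and 0.00414 from these contrasts, which were added after the values were seen. Across all genes 0% and 0.0557% were called in them. Across all 6 groups at once, Sema3b was the single member called by edgeR (adjusted p = 0.0051), where 5.56% of all genes were called. Sema3c was at an edgeR adjusted p = 0.243 in that test. Without the 3 libraries that stood apart edgeR called Sema3b (adjusted p = 0.00332) and also Sema3d (adjusted p = 0.00801), where 3082 of 16765 genes were called.

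**Figure D3:**
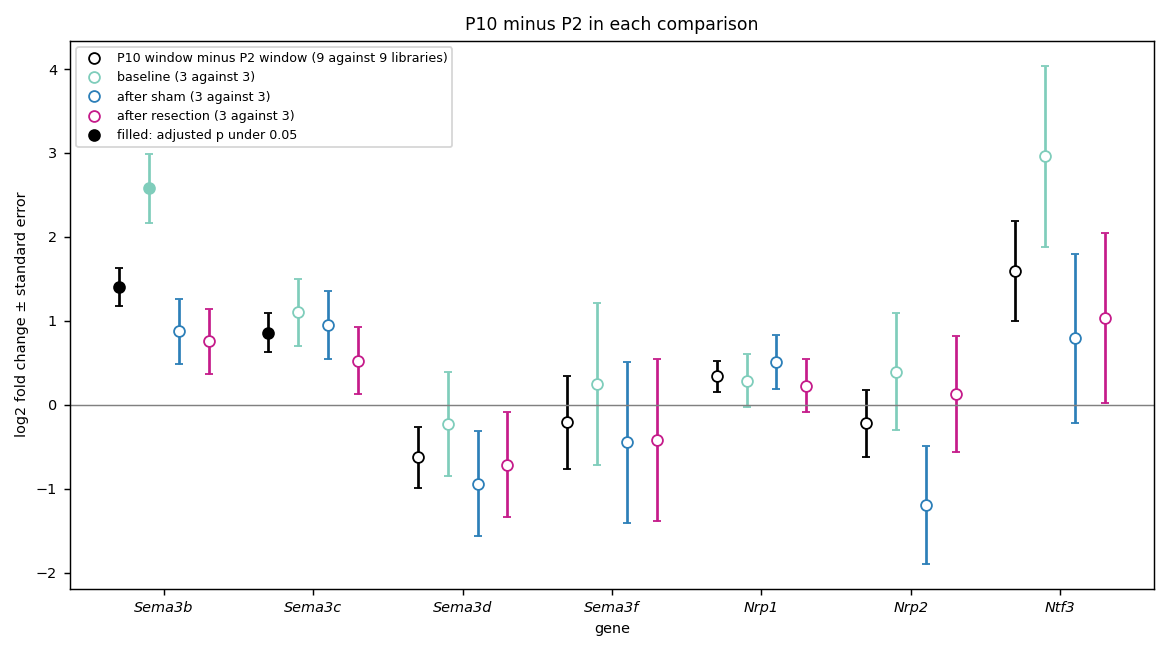
Log2 fold changes (y axis, points) with standard errors (bars) of P10 minus P2 for the 7 genes tested (x axis), for the 9 against 9 libraries of the windows and for the baseline, sham and resected groups; filled points passed an adjusted p of 0.05. Sema3b is filled over the windows (1.40) and at baseline (2.58), and Sema3c over the windows (0.86).

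Resection was compared with sham surgery at each age. At P2, 0 of 7 members were called by edgeR, DESeq2 or limma voom, and none had an unadjusted edgeR p under 0.05. EdgeR called 0% of all genes, 730 had an unadjusted p under 0.05, DESeq2 called 25 and limma voom 0. Sema3b averaged 22.6 ± 4.33 CPM after resection and 23.0 ± 6.80 CPM after sham surgery (SD, n = 3 each), and the log2 difference was -0.02 (standard error 0.39). Sema3c averaged 228 ± 72.1 and 226 ± 55.4 CPM, and the log2 difference was 0.01 (standard error 0.40). For Nrp1 the fold was 1.14 and for Sema3d 1.38, with standard errors of 0.32 and 0.62 on the log2 scale. No member separated resected from sham libraries at P2, as 8.47% of all genes did.

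At P10 edgeR, DESeq2 and limma voom again called 0 of 7 members between resected and sham libraries, with none at an unadjusted edgeR p under 0.05. Of all genes edgeR called 0%, with 661 at an unadjusted p under 0.05, DESeq2 called 39 and limma voom 0. Nrp2 had the largest difference, 14.0 ± 3.07 CPM after resection and 6.04 ± 1.34 CPM after sham surgery (SD, n = 3 each). Its libraries did not overlap, as for 8.68% of all genes and 5.63% with resected higher, and its log2 fold change of 1.21 (standard error 0.70) had an edgeR adjusted p = 1. Sema3d was at 0.70 (standard error 0.62), and at 1.56 without P10 sham replicate 1 and the other libraries that stood apart (edgeR adjusted p = 0.233). Sema3b was at -0.14, Sema3c at -0.41, Nrp1 at -0.09 and Ntf3 at -0.43. The resection effect at P10 minus that at P2 was called for 0 of 7 members by edgeR, DESeq2 and limma voom, with 0 members at an unadjusted edgeR p under 0.05. For this term edgeR called 0% of all genes, with 465 at an unadjusted p under 0.05, DESeq2 called 24 and limma voom 0. The largest was that of Nrp2 at 1.32 (standard error 0.98, edgeR adjusted p = 1.00), which turned to -0.18 without the 3 libraries that stood apart.

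Sham groups were also compared with the baseline of the same surgery age, a contrast in which surgery and 3 days of growth cannot be told apart. At P2, Sema3b was 3.40-fold higher after sham surgery (log2 fold change 1.77, standard error 0.40), with an unadjusted p of 0.000359 and an edgeR adjusted p = 0.26. No member of 7 was called by edgeR or limma voom, and DESeq2 called 1, Sema3b (adjusted p = 0.00239). EdgeR called 0% of all genes there, with 1229 at an unadjusted p under 0.05, DESeq2 called 138 and limma voom 0. Sema3b libraries did not overlap, as for 9.96% of all genes and 4.48% with sham higher, and without the 3 libraries that stood apart edgeR called it at 1.86 (adjusted p = 0.0312). That fit called 463 of 16765 genes. At P10 Sema3b was at 0.06 (standard error 0.38), and no member was called by edgeR, DESeq2 or limma voom or had an unadjusted edgeR p under 0.05, where edgeR called 0.00618% of all genes. No member separated these groups, as 10% of all genes did. Sema3d at -1.06 (standard error 0.63, edgeR adjusted p = 0.769) and Nrp2 at -0.91 (standard error 0.70, edgeR adjusted p = 0.878) had the largest differences there.

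**Figure D4:**
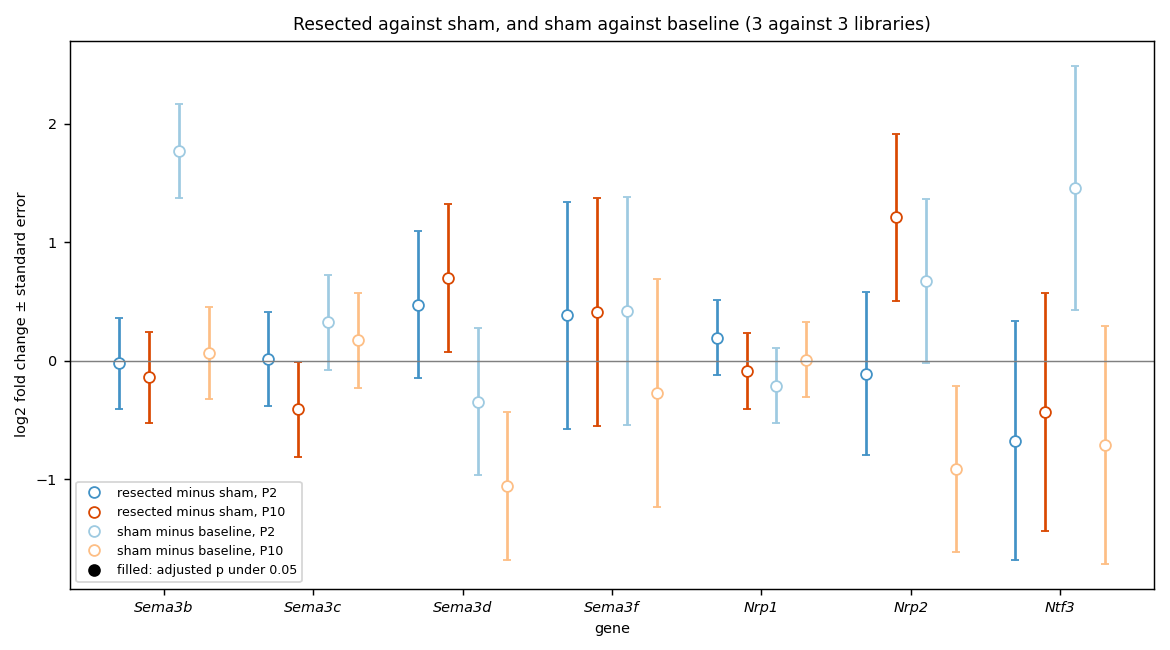
Log2 fold changes (y axis, points) with standard errors (bars) for the 7 genes tested (x axis) between resected and sham libraries and between sham and baseline libraries at each surgery age, 3 against 3 libraries. No point passed an adjusted p of 0.05, and the Sema3b point at 1.77 is P2 sham minus P2 baseline.

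The genes whose log2 CPM followed each member most closely over the 18 libraries were named by Pearson's r, as a description. For Sema3b they were Pamr1 (r = 0.93) and Kcnj8 (r = 0.92), the latter a potassium channel subunit of pericytes and one of the 9 mural cell markers examined. Kcnj8 rose from 72.3 ± 31.2 CPM at P2 to 149 ± 36.4 CPM at P10 (SD, n = 9; log2 fold change 1.10, edgeR adjusted p = 0.000499). Between the windows 4 of the 9 mural markers (Rgs5, Kcnj8, Myh11 and Higd1b) were called higher and Mcam lower, where 7.11% of all genes were called higher and 6.39% lower, with no marker at 0. The summed mural markers ranged from 454 to 1065 CPM at P2 and from 659 to 1563 CPM at P10. At P2 baseline the sum was 463 to 650 CPM and at P2 sham 454 to 1031 CPM. Both Sema3b and Kcnj8 separated these groups, as 9.96% of all genes did and 4.48% with sham higher. Kcnj8 was at 35.6, 42.9 and 53.6 CPM at P2 baseline and at 90.8, 134 and 57.8 CPM at P2 sham. Kcnj8 was picked because it followed Sema3b in these same libraries. Its group differences are therefore largely set by that choice and are no separate evidence. Over the 18 libraries Sema3b followed the summed mural markers with r = 0.43, the summed fibroblast markers with r = 0.64, the summed macrophage markers with r = 0.42 and the summed cardiomyocyte markers with r = -0.62, libraries that share their age groups. The macrophage markers summed to 5.29 to 450 CPM at P2 and to 17.7 to 1086 CPM at P10, with 1 of 13 tested called higher. Sema3c followed the fibroblast sum with r = 0.61, the sum of 9 endothelial markers with r = 0.62, the Schwann cell and neuronal sum with r = 0.52, the mural sum with r = 0.51 and the cardiomyocyte sum with r = -0.58. The Schwann cell and neuronal sum had a median of 36.6 CPM at P2 and 57.9 CPM at P10, with 0 of 6 tested markers called. At baseline its median was lower at P10, 20.4 against 36.6 CPM. It was higher at P10 after sham surgery (68.8 against 37.9 CPM) and after resection (56.7 against 34.3 CPM). The part of these cell types in the Sema3b and Sema3c differences was not tested.

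**Figure D5:**
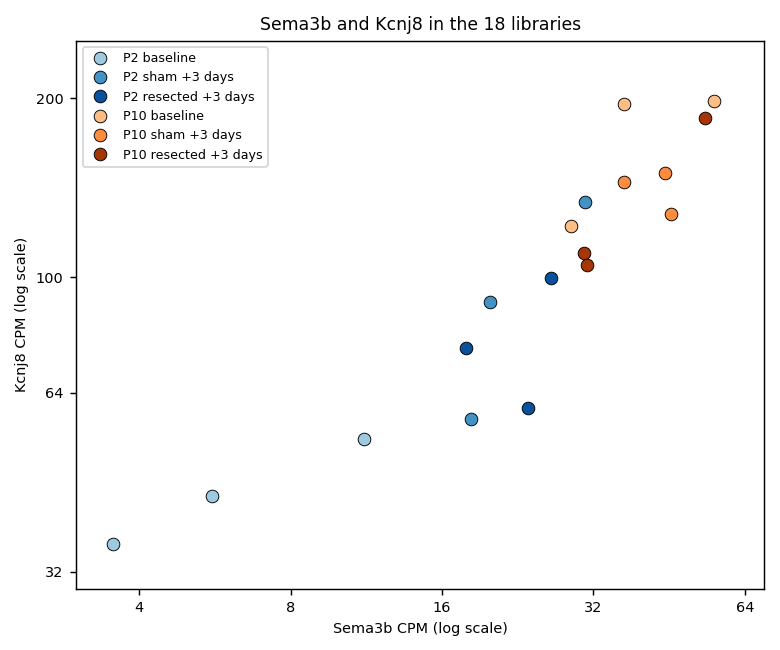
Each point is 1 of the 18 libraries, coloured by group, with Sema3b CPM on the x axis and Kcnj8 CPM on the y axis, both on log scales. The 3 P2 baseline libraries lie lowest for both genes, and Pearson's r of log2 CPM is 0.92. Kcnj8 was picked for its r with Sema3b in these libraries.

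The other members had other companions. Sema3c was followed by Adamtsl3 (r = 0.88) and Mcur1 (r = 0.86), Sema3d by Slf2 (r = 0.95) and Zfp292 (r = 0.95), and Nrp1 by Bicc1 (r = 0.95) and Zbtb20 (r = 0.94). Sema3f was followed by Nudt14 (r = 0.95) and Tmem192 (r = 0.88), Nrp2 by the predicted genes Gm47138 (r = 0.83) and Gm18422 (r = 0.81), and Ntf3 by Cyb5rl (r = 0.89) and Lrsam1 (r = 0.86). Among the members themselves, the highest r were those of Nrp1 with Sema3c (0.72) and of Ntf3 with Sema3b (0.70), and the lowest were those of Nrp1 with Sema3f (-0.64) and of Sema3c with Sema3f (-0.61). Sema3d and Ntf3 had r = -0.54. These r share libraries of unequal age and the 3 libraries that stood apart.

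The upstream sequences of Sema3d and Ntf3 are shown because their P10 minus P2 differences had opposite signs and these windows hold no annotated exon. They are the 250 bases before a RefSeq transcript start in GRCm38.p6, in transcript orientation, and capitals mark GGGCGG (a GC box) and CCAAT, searched on both strands. RefSeq windows were given for 7 of the 9 members, and not for Sema3b and Sema3f. The Sema3d window (chr5:12382916-12383165, forward strand) has 46.8% GC, 4 CpG and 1 CCAAT, read here on the other strand as ATTGG. The Ntf3 window (chr6:126164961-126165210, reverse strand) lies inside the gene, in no annotated exon, before the second of its starts and has 54.0% GC, 14 CpG, 1 GGGCGG and 1 CCAAT.
Sema3d: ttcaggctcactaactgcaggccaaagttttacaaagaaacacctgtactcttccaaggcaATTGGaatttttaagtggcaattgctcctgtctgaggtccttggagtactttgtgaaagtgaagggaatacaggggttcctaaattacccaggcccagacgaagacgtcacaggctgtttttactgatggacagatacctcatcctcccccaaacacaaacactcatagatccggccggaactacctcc
Ntf3: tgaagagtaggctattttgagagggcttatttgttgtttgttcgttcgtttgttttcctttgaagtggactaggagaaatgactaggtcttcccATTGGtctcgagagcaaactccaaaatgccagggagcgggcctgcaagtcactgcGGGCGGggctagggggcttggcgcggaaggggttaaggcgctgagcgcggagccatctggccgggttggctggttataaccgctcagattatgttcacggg
Among the 32851 windows of the same length, 32.7% hold GGGCGG and 33.8% hold CCAAT, and the median window has 52.4% GC and 6 CpG. A match is a description of these letters and was not tied to the counts.

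Receptors, signal transducers and other guidance cues were followed through 8 lists of 74 further genes, 65 of which were tested. Between the windows 7 of the 65 were called higher and 5 lower at P10, where 7.11% and 6.39% of all genes were, and the median log2 fold change was -0.02 against -0.06 over all genes tested. None of the 10 genes of the plexin list (9 plexins, the signalling partners of neuropilins, and the ligand Sema3g) was called by edgeR. Of 12 membrane semaphorins tested 1 was called lower and 0 higher, and the same counts held for 12 genes of semaphorin signal transduction. The lower genes there were Sema5b, a transmembrane semaphorin (3.53 ± 2.17 CPM at P2 and 1.44 ± 1.71 CPM at P10), and Mical2, an actin-oxidising enzyme downstream of plexins (273 ± 95.5 and 125 ± 39.7 CPM, all SD, n = 9). Their log2 fold changes were -3.53 (edgeR adjusted p = 0.0173, a call that limma voom did not make) and -1.17 (edgeR adjusted p = 0.000659). The fitted value averages the logs of the group means, and for Sema5b, and for Ntrk2 among the neurotrophin receptors, it is larger in size than the log2 ratio of the window means in CPM.

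Among the other neurotrophins and their receptors, none was called lower at P10 by edgeR. Ntrk2, the receptor of Bdnf, rose from 2.35 ± 2.96 to 6.79 ± 5.14 CPM (SD, n = 9; log2 fold change 3.25, standard error 0.91, edgeR adjusted p = 0.0239), and that call was lost when any of 4 libraries was left out, with log2 fold changes from 2.89 to 4.09 over the 18 fits. Those 4 were P2 baseline replicates 2 and 3, P2 resected replicate 3 and P10 sham replicate 3.

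The GDNF receptors had the lowest adjusted p-values of the 8 lists. Gfra1, the co-receptor of GDNF, rose from 29.0 ± 14.1 to 158 ± 52.2 CPM (log2 fold change 2.56, standard error 0.20, edgeR adjusted p = 3.9e-07). Ret, the kinase it signals through, rose from 79.2 ± 18.5 to 247 ± 29.4 CPM (1.64, standard error 0.14, edgeR adjusted p = 7.59e-07). Gdnf itself did not pass the filter and averaged 0.00612 CPM at P2 and 0.149 CPM at P10. Both receptors were also called between the ages within the baseline, the sham and the resected groups.

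Netrins, Slits and their receptors held calls in both directions. Of 7 genes tested in the netrin list 2 were called higher and 1 lower, and of 5 Slits and Robos 0 higher and 2 lower. Ntn4, a netrin of basement membranes, rose from 10.4 ± 2.84 to 59.5 ± 19.8 CPM (log2 fold change 2.49, edgeR adjusted p = 7.67e-07), and Ntn1 from 70.1 ± 18.0 to 119 ± 36.7 CPM (0.77, edgeR adjusted p = 0.0115). Unc5b, a netrin receptor, fell from 83.7 ± 32.7 to 34.7 ± 11.8 CPM (-1.25, edgeR adjusted p = 0.000659). Slit2, a ligand of Robo receptors, fell from 69.1 ± 29.9 to 31.8 ± 14.7 CPM (-1.12, edgeR adjusted p = 0.0185), and Robo2 from 30.2 ± 18.2 to 13.3 ± 11.6 CPM (-1.26, edgeR adjusted p = 0.0492). The Robo2 call held in 5 of the 18 fits that left out 1 library, with log2 fold changes from -1.67 to -0.82, and was lost under RLE scaling. Of 5 VEGF ligands 1 was called higher, Pgf (78.1 ± 17.5 and 124 ± 41.6 CPM, SD, n = 9, log2 fold change 0.67, edgeR adjusted p = 0.0418), which was named after its values were seen and held in 4 of those 18 fits, from 0.54 to 0.78. The other calls of the 8 lists named here, except that of Ntrk2, held in 18 of 18. No gene of the 8 lists was called by edgeR between resected and sham libraries at either age.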

How the data were processed

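Sorted GFP+ cells were profiled by single-end RNA sequencing (SMARTer Ultra Low Input v4 and Nextera XT), which does not keep the strand. The authors trimmed reads with fastp 0.20.0, aligned them with STAR 2.7.0f to GRCm38.p6 and counted exon reads per gene symbol with featureCounts of Subread 1.6.4. The values the authors deposited are raw counts, with no column left unassigned. Library sizes were scaled by TMM. In edgeR 4.0.16 (R 4.3.3), genes were kept by filterByExpr (minimum count 10, minimum total 15), and the quasi-likelihood test was fitted with 1 mean per group over all 18 libraries, with Benjamini-Hochberg adjustment over 16170 genes and a threshold of 0.05. There were 10 comparisons. Each standard error is the size of the log2 fold change divided by the square root of the F value of its test. Log2 CPM for correlations used a prior count of 2, and CPM per kb divided by the summed exon length. The limits given for counts of 0 cover counting error only.

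Alternatives were RLE scaling, no filter, DESeq2 1.42.0, limma 3.58.1 (voom with sample weights), only the groups compared, a replicate block and leaving out each library. The contrasts without baseline groups, the differences of age differences and the fit without 3 libraries were added after seeing the data. On simulated data for P10 against P2 (15470 genes), edgeR recovered 63% of genes changed 4-fold and 29% of those changed 2-fold (100 each), and 93.75% and 48.333% of the 64 and 60 of them at a mean CPM of 5 or more. The members and lists were chosen with earlier results of these data known. From the lists, up to 6 genes per direction with the smallest adjusted p between the windows were named, with the 2 genes of highest r per member. Some genes of the lists are not reported here. Positions come from a GENCODE annotation of GRCm38 and promoter windows from RefSeq. Nrp1 shares 80 exon bases with Mir1903, which had 0 counts.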

Additional observations from a re-analysis of the deposited data

How the results depend on the processing

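Sema3a and Sema3e did not pass the filter, and the levels of Ntf3 and Sema3f rest on few reads. Sema3b and Sema3c between the windows kept their calls in all 18 fits without 1 library, from 1.30 to 1.59 and from 0.68 to 0.96. The number of members called changed in the following. Between the windows it was 4 with voom, 3 without the filter, with DESeq2, without P2 baseline replicate 1 and without P10 baseline replicate 1, and 0 with sham and resected groups only. At baseline it was 2 without the filter, with DESeq2 and without the 3 libraries that stood apart, and 3 with voom. After sham surgery it was 1 without the filter. For P2 sham against baseline it was 1 without the filter, with DESeq2 and without the 3 libraries. Over all groups it was 3 without the filter and 2 with voom and without the 3 libraries. The cause was not tested. Across all genes, the calls between the windows were 2183, and 1680 to 2987 without 1 library and 2199 to 4569 under the other settings. At baseline there were 709 (264 to 1207, and 295 to 3645), after sham surgery 515 (312 to 416, and 125 to 1182), after resection 139 (30 to 136, and 147 to 908) and over all groups 899 (581 to 1212, and 914 to 3813). For resected against sham the other settings gave 0 to 26 at P2 and 0 to 76 at P10, for their difference 0 to 30, and for sham against baseline 0 to 463 at P2 and 1 to 151 at P10.

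The log2 fold changes that turned sign all belonged to uncalled differences. Without the 3 libraries they were 0.0518 for Sema3f between the windows, -0.14 for Nrp1 and -0.45 for Nrp2 at baseline and 0.31 for Nrp2 after sham surgery. For P2 resected against sham they were -0.0083 for Sema3c and 1.28 for Nrp2, and at P10 0.11 for Sema3c, -0.18 for Sema3f and 0.27 for Nrp1. For sham against baseline they were -0.72 for Nrp2 at P2, and -0.19 for Sema3b and 0.0478 for Nrp2 at P10, and for the difference of resection effects 0.0325 for Sema3b, 0.12 for Sema3c, -0.36 for Sema3f and -0.18 for Nrp2. With voom they were -0.0631 for Nrp1 and -0.79 for Nrp2 at baseline, 0.0603 for Nrp2 after sham surgery, 0.0749 for Sema3b, -0.23 for Sema3c and 1.05 for Nrp2 in P2 resected against sham, 0.17 for Nrp1 at P10, -0.53 for Nrp2 in P2 sham against baseline, 0.33 for Nrp2 at P10 and 0.22 for Sema3c in the difference. RLE scaling and DESeq2 gave -0.010 for Sema3c in P2 resected against sham, as did the fit of only those groups, and -0.0038 for Nrp1 in P10 sham against baseline.

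Replicate numbers were not taken to pair the libraries. The labels do not say what a shared number means, and not every same-number pair had an r over 0.1. The title ending shared by the libraries that stood apart was not used in a fit. Of 45 same-number pairs 15 had an r over 0.1 (-0.135 to 0.378, median 0.0466), against 12 of 90 other pairs (median -0.0248), and 10 of 18 libraries correlated best with their own number. The replicate block changed no number of members called. With the block, Sema3f was at -0.042 at baseline, and Sema3c at -0.0359 and Nrp2 at 0.24 in P2 resected against sham. Across all genes the block gave 2745 calls between the windows.

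Leaving out 1 library turned the sign of 53 values, kept the sign and the side of the threshold of 449 and brought 2 past the threshold. The ranges at baseline were -0.14 to 0.49 for Nrp1, -0.45 to 0.83 for Nrp2, -1.36 to 0.14 for Sema3d and -0.0368 to 0.64 for Sema3f. For P10 resected against sham they were -0.28 to 0.27 for Nrp1, -0.66 to 0.11 for Sema3c and -0.18 to 1.05 for Sema3f, and for P10 against P2 resected -0.0707 to 0.47 for Nrp2. For P10 sham against baseline they were -0.35 to 0.44 for Nrp1, -0.13 to 0.36 for Sema3b, -0.34 to 0.70 for Sema3c, -1.92 to 0.0717 for Sema3d and -0.91 to 0.31 for Sema3f. For P10 against P2 sham they were -1.62 to 0.20 for Nrp2 and -1.08 to 0.14 for Sema3f, and between the windows -0.50 to 0.24 for Nrp2. For P2 resected against sham they were -0.54 to 1.28 for Nrp2, -0.16 to 0.24 for Sema3b and -0.18 to 0.25 for Sema3c. For P2 sham against baseline they were -0.72 to 1.10 for Nrp2, -0.92 to 0.0722 for Sema3d and -0.0581 to 0.62 for Sema3f. For the difference of resection effects they were -0.58 to 0.0764 for Nrp1, -0.0707 to 1.75 for Nrp2, -0.18 to 0.87 for Ntf3, -0.43 to 0.0275 for Sema3b, -0.67 to 0.0930 for Sema3c, -0.35 to 1.08 for Sema3d and -0.56 to 0.66 for Sema3f.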
